A study of Mus musculus with 6 samples.

Results

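The genes described here are 7 regulators of hepatic lipid synthesis, namely Srebf1, Srebf2, Scap, Insig1, Insig2, Mlxipl and Mlx. Accessible chromatin around them was mapped by ATAC-seq, which marks open DNA by where a transposase can cut and tag it. The genes were taken by name, and every interval that overlapped a RefSeq gene span (mm10, the GRCm38.p6 assembly) or the 10 kb to either side of it was counted. This gave 39 of the 120905 intervals in the deposited list, and 7 of the 21887 protein-coding genes. The study made 6 liver libraries from males with no engineered allele (wild-type) under the High-fat Diet, 3 of the inbred strain C57BL/6J and 3 of the inbred strain 129S1/SvImJ. The sources used here give neither age, duration of feeding and time of day nor whether each library came from its own animal. All 6 labels also carry an antibody entry naming Esrrg, a nuclear receptor, which an ATAC-seq protocol does not use. The authors combined both strains in 1 list of positions without scores or read counts. The strains were therefore not compared, the depth is unknown, and no value has a spread between animals.

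SREBP-1 (Srebf1) and SREBP-2 (Srebf2) are transcription factors made as precursors in the endoplasmic reticulum membrane. SCAP escorts them to the Golgi for cleavage when sterols are low, and INSIG-1 and INSIG-2 hold the SCAP and SREBP complex back when sterols are abundant. In liver, SREBP-1 mainly drives fatty acid synthesis and SREBP-2 cholesterol synthesis and uptake. ChREBP (Mlxipl) responds to glucose metabolites and activates glycolytic and lipogenic genes as a heterodimer with MLX (Mlx). Srebf1 and Mlxipl each have alternative first exons that give different protein isoforms.

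All 7 genes had at least 2 intervals, and the numbers ran from 2 in Mlx to 10 in Scap, with a median of 6. Of all protein-coding genes, 83.9% had at least 1 interval within the same limits, and their median was 3. These are genes of any length, and genes similar in length to each of the 7 had medians of 2 to 5. The 39 intervals lay inside the gene spans in 23 cases, upstream of the 5′ end in 11 and downstream of the 3′ end in 5, judged by their centres. In bulk liver, fewer cells of a type and less open chromatin per cell cannot be told apart. Their median width was 203 bp, the same as in the whole list, and 17 (43.6%) had the narrowest width of 201 bp, against 46.2% of all intervals.

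Intervals stood at the start sites of 5 of the 7 genes. RefSeq lists 13 starts for the 7 genes, and a promoter window was taken from 250 bp before to 50 bp after each. An interval overlapped the window of at least 1 start in Srebf1, Srebf2, Scap, Insig2 and Mlxipl, and of none in Insig1 and Mlx. The same held for 52.1% of the 17492 protein-coding genes that have a listed start. By single starts, 9 of 13 windows were overlapped, against 48.4% of 21263 protein-coding windows. The 7 genes have more listed starts per gene than the 17492, so a count by any start gave them more windows to be overlapped. Because the 2 windows of Scap overlap each other, as does 1 interval with a pair of windows in Insig2, those starts are not separate observations. Only 1 of the 7 intervals over these windows had the narrowest width, and their median was 216 bp, against a median of 213 bp for the 9091 intervals over protein-coding promoter windows, of which 17.2% were of 201 bp.

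All listed promoter windows of Srebf1 and Mlxipl, the transcription factor genes with alternative starts, are shown here with that of Srebf2, which has a single listed start, and with those of Insig1 and Mlx. No interval overlapped the windows of Insig1, Mlx and Srebf1 start 1. They are RefSeq sequences of GRCm38.p6, written 5′ to 3′ on the gene's own strand. Letter 251 is the start. Capitals mark matches, on either strand, to CACGTG (E-box, bound by ChREBP with MLX, by SREBPs and by clock activators), TCACNCCAC (a form of the sterol regulatory element), CCAAT (NF-Y box) or GGGCGG (GC box, bound by Sp1), and adjoining matches form a single run of capitals.
Srebf1 start 1, chr11:60222532-60222831, minus strand: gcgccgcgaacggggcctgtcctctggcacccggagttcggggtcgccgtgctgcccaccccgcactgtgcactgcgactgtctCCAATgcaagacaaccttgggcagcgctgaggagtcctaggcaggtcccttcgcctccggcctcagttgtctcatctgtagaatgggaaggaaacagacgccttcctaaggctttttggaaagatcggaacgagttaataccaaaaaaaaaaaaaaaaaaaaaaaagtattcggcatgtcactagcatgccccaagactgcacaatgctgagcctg
Srebf1 start 2, chr11:60220578-60220877, minus strand: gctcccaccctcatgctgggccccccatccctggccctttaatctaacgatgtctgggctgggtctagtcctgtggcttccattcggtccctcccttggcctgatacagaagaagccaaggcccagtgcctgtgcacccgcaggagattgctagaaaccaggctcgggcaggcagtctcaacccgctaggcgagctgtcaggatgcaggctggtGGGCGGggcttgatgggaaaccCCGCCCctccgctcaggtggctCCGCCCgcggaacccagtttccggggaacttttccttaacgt
Srebf1 start 3, chr11:60210422-60210721, minus strand: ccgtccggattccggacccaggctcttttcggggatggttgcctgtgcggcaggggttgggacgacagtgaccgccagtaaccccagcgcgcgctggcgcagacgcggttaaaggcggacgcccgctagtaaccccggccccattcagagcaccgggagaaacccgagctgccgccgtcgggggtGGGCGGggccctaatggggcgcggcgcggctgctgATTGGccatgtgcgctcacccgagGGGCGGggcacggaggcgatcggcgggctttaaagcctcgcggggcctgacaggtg
Srebf2 start 1, chr15:82147019-82147318, plus strand: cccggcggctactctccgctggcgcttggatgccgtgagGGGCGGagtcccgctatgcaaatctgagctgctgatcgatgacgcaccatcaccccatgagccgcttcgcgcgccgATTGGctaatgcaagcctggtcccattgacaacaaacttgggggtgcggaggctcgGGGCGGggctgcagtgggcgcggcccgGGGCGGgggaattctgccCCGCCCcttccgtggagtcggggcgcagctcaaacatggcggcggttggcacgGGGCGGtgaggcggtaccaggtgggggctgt
Mlxipl start 1, chr5:135089640-135089939, plus strand: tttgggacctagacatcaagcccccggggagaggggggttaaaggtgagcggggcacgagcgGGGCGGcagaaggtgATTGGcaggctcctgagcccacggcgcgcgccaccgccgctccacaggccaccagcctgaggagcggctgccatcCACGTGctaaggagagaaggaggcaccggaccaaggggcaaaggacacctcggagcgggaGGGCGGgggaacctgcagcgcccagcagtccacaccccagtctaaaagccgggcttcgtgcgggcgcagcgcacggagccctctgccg
Mlxipl start 2, chr5:135106641-135106940, plus strand: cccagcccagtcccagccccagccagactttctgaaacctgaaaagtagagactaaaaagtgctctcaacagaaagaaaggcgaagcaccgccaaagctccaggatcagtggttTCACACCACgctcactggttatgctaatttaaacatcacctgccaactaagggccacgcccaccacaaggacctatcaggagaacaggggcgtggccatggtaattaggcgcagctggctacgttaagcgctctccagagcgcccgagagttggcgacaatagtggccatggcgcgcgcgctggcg
Insig1 start 1, chr5:28071162-28071461, plus strand: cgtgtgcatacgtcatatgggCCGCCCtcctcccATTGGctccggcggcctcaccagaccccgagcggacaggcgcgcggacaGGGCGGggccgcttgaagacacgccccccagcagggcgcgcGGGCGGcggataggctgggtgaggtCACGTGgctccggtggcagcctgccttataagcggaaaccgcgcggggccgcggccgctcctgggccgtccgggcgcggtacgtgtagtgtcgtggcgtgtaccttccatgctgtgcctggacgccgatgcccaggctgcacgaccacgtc
Mlx start 1, chr11:101087040-101087339, plus strand: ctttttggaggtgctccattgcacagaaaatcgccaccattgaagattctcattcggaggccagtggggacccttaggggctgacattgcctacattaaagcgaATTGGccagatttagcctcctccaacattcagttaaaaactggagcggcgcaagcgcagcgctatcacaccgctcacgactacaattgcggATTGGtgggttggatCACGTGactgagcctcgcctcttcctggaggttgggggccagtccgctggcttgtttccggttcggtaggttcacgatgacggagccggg

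Srebf1 (chr11:60199084-60224186, minus strand, 25.1 kb) held 6 intervals, and 2 of its 3 listed starts lay under or beside one. A 205 bp interval (chr11:60220600-60220804) covered the middle start and letters 74 to 278 of its printed window, with its centre 75 bp upstream of the start. A 226 bp interval (chr11:60210501-60210726) was centred 143 bp upstream of the third start, which lies 13.7 kb into the gene, and covered letters 1 to 221. The outermost listed start had no interval in its window.

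Upstream of that outermost start, centred 514 bp before it, lay the widest interval of the 7 genes, at 364 bp (chr11:60222913-60223276). Only 0.332% of all intervals were as wide or wider. Widths in the whole list ran from 201 to 401 bp. How libraries were combined into these intervals is not given in the sources used here. Width therefore cannot be read as the extent of open chromatin. The other 3 intervals of Srebf1 were at chr11:60224805-60225005 and chr11:60229920-60230157, centred 719 bp and 5853 bp beyond the 5′ end of the span, and at chr11:60204074-60204274 inside the gene, 5090 bp before its 3′ end. The farthest upstream interval also overlaps Tom1l2, a neighbouring gene, and Rai1 overlaps the 3′ end of Srebf1 without an interval there. No interval was found from the last of these down to the edge of the window 10 kb past the 3′ end, a stretch of 15.0 kb.

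Srebf2 (chr15:82147269-82205379, plus strand, 58.1 kb) had 8 intervals spread along the gene. A 204 bp interval (chr15:82147027-82147230) covered letters 9 to 212 of the printed promoter, ended 39 bp short of the start and took in 3 of its 5 GC box matches and its single CCAAT match. The first 19.1 kb after it were free of intervals. Inside the gene, intervals stood at chr15:82166356-82166556, chr15:82183693-82183893, chr15:82184703-82184971 and chr15:82199847-82200047, between 33.0% and 90.7% of the way along the span.

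The interval at 90.7% of the span was the nearest to Mir33, the gene of the microRNA miR-33 that lies within Srebf2 and is known to repress cholesterol efflux, and stood 1657 bp from it. Past the 3′ end, intervals of 207 bp (chr15:82206315-82206521) and 201 bp (chr15:82206813-82207013) were centred 1039 and 1534 bp from the end, inside the neighbouring gene Shisa8. A further interval of 201 bp (chr15:82138608-82138808), 8561 bp upstream, lay in Ccdc134. Intervals of Srebf2 thus overlapped a neighbouring gene in 3 of 8 cases.

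**Figure D1:**
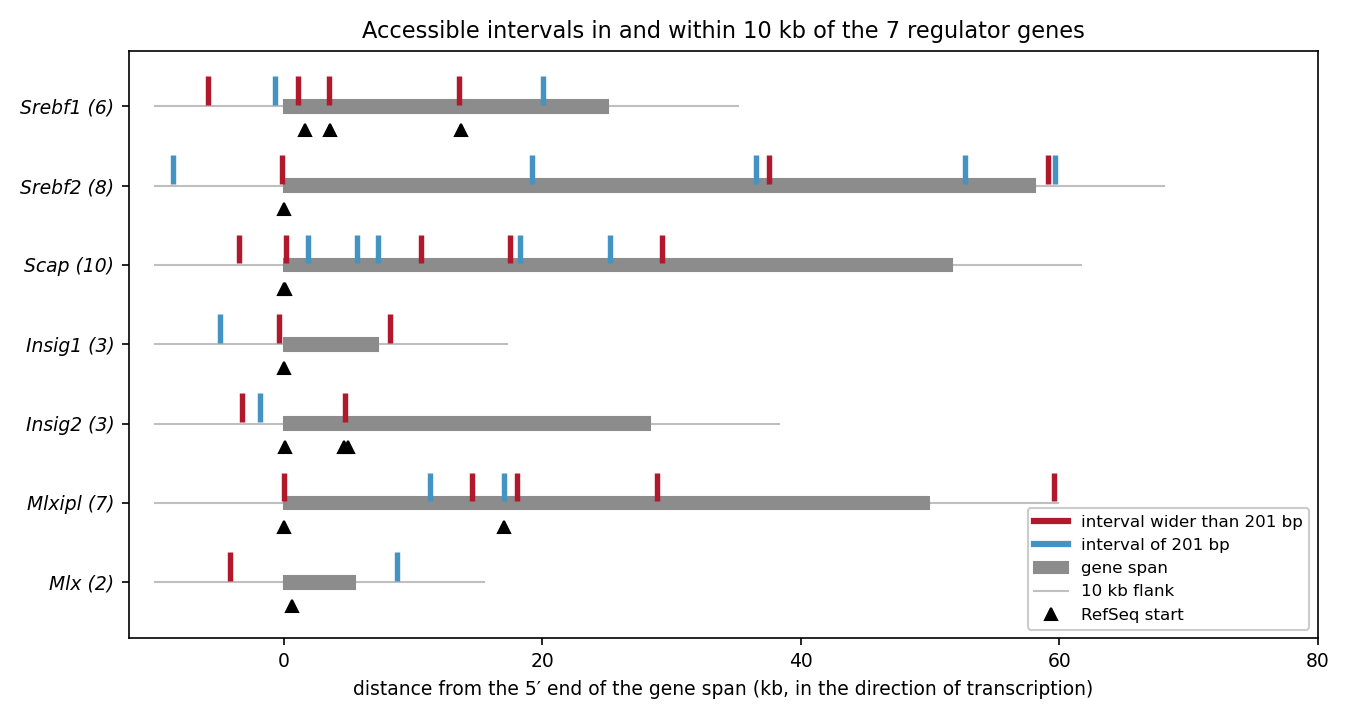
Positions of the intervals of each gene, plotted as distance from the 5′ end of the gene span in kb in the direction of transcription. Vertical bars are intervals (red wider than 201 bp, blue 201 bp, not drawn to width), grey boxes gene spans, thin lines the 10 kb flanks and triangles RefSeq starts, and the number in brackets is the interval count. Scap carries 10 intervals, the last of them at 56.6% of its span, while Insig1 and Mlx have none inside the gene.

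Scap (chr9:110333288-110384949, plus strand, 51.7 kb), the sterol-sensing escort of the SREBPs, had the most intervals of the 7 genes. It held 10, and 9.01% of protein-coding genes of any length had as many or more. A 216 bp interval (chr9:110333330-110333545) covered the second of its 2 listed starts, which are 68 bp apart, and was centred 82 bp downstream of it. Another of 202 bp (chr9:110329710-110329911) lay 3478 bp upstream of the gene.

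The remaining 8 intervals of Scap all lay inside it and were 201 to 218 bp wide. They stood at chr9:110335055-110335255, chr9:110338826-110339026, chr9:110340496-110340696 and chr9:110343784-110344001 in the first 20.5% of the span, and at chr9:110350668-110350874, chr9:110351422-110351622, chr9:110358400-110358600 and chr9:110362415-110362616 between 33.8% and 56.6%. From there to the edge of the window, 32.3 kb including the 3′ end and part of the neighbouring phosphatase gene Ptpn23 held none. Across the 7 genes, 16 of the 23 intervals inside spans (69.6%) lay before the midpoint of the gene, against 58.0% of 46980 in other protein-coding genes with a listed start, and 8 of those 16 belonged to Scap.

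The genes of the retention proteins had 3 intervals each, placed differently. Insig1 (chr5:28071412-28078662, plus strand, 7.25 kb), which SREBPs themselves activate, had none inside the gene. The nearest to its start was a 203 bp interval (chr5:28070901-28071103) that ended 309 bp upstream, outside the promoter window printed above. A wider one of 293 bp (chr5:28079431-28079723) was centred 915 bp past the 3′ end, and one of 201 bp (chr5:28066384-28066584) lay 4928 bp upstream. The whole of Insig1 lies within the span of Gm35223, a long non-coding RNA gene on the opposite strand, so these intervals cannot be assigned to either gene by position.

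Insig2 (chr1:121304353-121332662, minus strand, 28.3 kb), whose product acts like INSIG-1 but which is not itself a classical SREBP target, had 1 interval inside the gene. This 261 bp interval (chr1:121327793-121328053) covered its second start and reached into the window of the third, which starts 4984 bp inside the span against 4638 bp for the second. The outermost start was 1802 bp from the nearest interval, chr1:121334391-121334591, and chr1:121335797-121336035 lay 3327 bp upstream of that start. Inside the gene no interval followed the one at the inner starts, and 33.4 kb down to the edge of the window were empty, the longest such stretch among the 7 genes.

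With the ends of the gene span in place of listed starts, an interval within 1 kb of either end was present in 5 of the 7 genes. Insig2 and Mlx had none. The share was 61.5% among all protein-coding genes. Among the 500 genes nearest in length to each member, it ran from 58.4% for Mlx to 76.4% for Scap, and was 71.6% for Insig2. Insig2 therefore lacked an interval at its outer ends but had 1 at its inner starts. Insig1 had intervals within 1 kb of both ends without any in its promoter window. Mlx lacked an interval by both measures.

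Mlxipl (chr5:135089890-135139768, plus strand, 49.9 kb), the ChREBP gene, had 7 intervals and 1 on each of its 2 listed starts, which are 17.0 kb apart. At the outer start a 281 bp interval (chr5:135089721-135090001) was centred 29 bp upstream and covered letters 82 to 300 of the printed window. The only E-box match that lay inside an interval in any of the 13 windows was here, 98 bp before the start. At the inner start a 201 bp interval (chr5:135106813-135107013) was centred 22 bp downstream and covered letters 173 to 300, which do not include the TCACNCCAC match that begins 136 bp before the start. The RefSeq table does not say which start makes which ChREBP isoform.

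Further intervals flanked the inner start of Mlxipl. One of 266 bp (chr5:135104330-135104595) was centred 2429 bp upstream of it, one of 280 bp (chr5:135107799-135108078) 1048 bp downstream, and one of 201 bp (chr5:135101087-135101287) 5704 bp upstream. The last interval inside the gene, 230 bp wide (chr5:135118652-135118881), was centred 11876 bp downstream of that start. Then 30.5 kb were empty up to a 203 bp interval (chr5:135149392-135149594) near the edge of the window, which overlapped the promoter window of the next gene, Tbl2, with its centre 193 bp from the start.

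Mlx (chr11:101086707-101092207, plus strand, 5.50 kb), which encodes the partner of ChREBP, had 2 intervals, the fewest of the 7 genes, and neither was near its start. The start was 4588 bp from the nearest interval. A 295 bp interval (chr11:101082408-101082702) straddled the 5′-side neighbour Coasy, a coenzyme A synthesis gene, at its lower-coordinate end, and a 201 bp interval (chr11:101095364-101095564) was centred 29 bp from the start of Psmc3ip. Both intervals counted for Mlx thus overlap neighbouring genes. Naglu, Hsd17b1 and Retreg3 also lie within 10 kb of it. The E-box match 40 bp before its start, visible in the sequence above, was not in an interval.

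**Figure D2:**
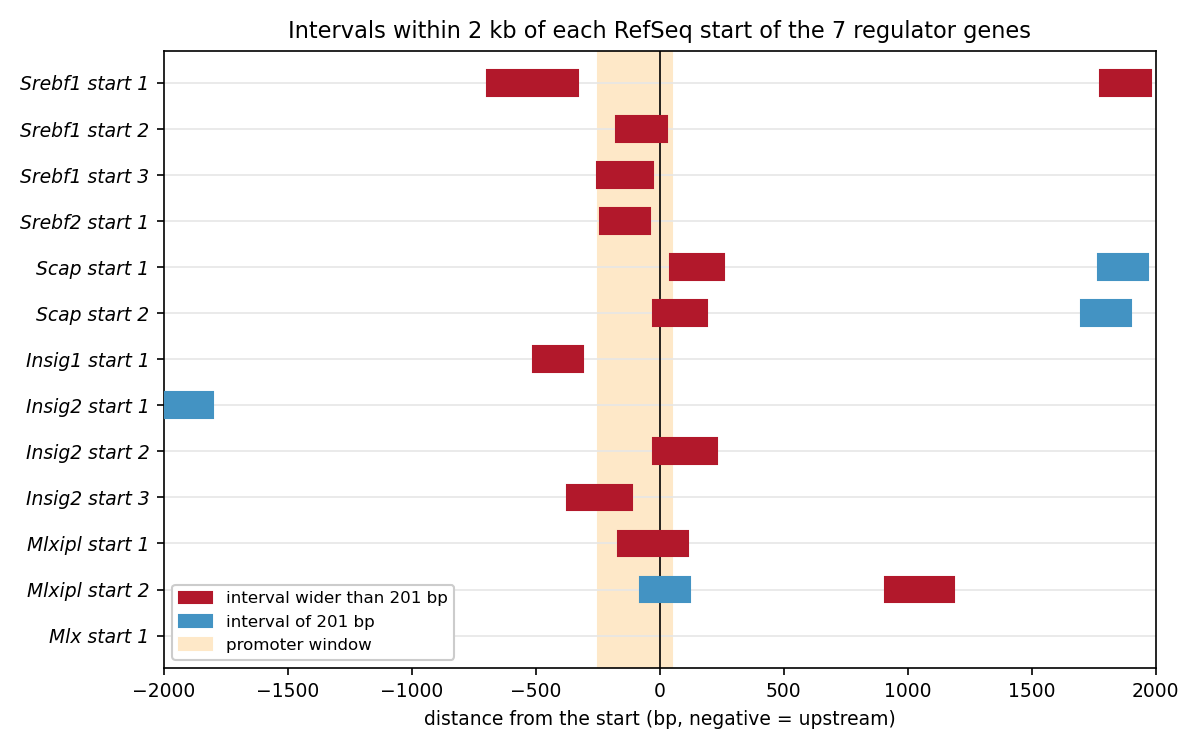
Intervals within 2 kb of each of the 13 listed starts, plotted as distance from the start in bp (negative is upstream), to scale. Boxes are intervals (red wider than 201 bp, blue 201 bp) and the shaded band is the promoter window. Mlxipl has an interval across each start, that of Insig1 ends 309 bp short of the start, and Mlx has none in view.

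E-box matches were found in 5 of the 13 promoter windows, in Scap, Insig1, Mlxipl and Mlx, with the same match counted in both overlapping windows of Scap. Of the 21263 protein-coding promoter windows, 7.84% held one, as did 7.15% of all 32851 listed windows. The TCACNCCAC form occurred in 1 of 13, at the inner start of Mlxipl, against 1.19% of protein-coding and 1.24% of all windows. CCAAT occurred in 7 of 13 windows, against 38.2% of protein-coding and 37.4% of all windows. GGGCGG occurred in 9 of 13, against 46.2% of protein-coding and 35.7% of all windows. A strict form of the LXR element (a direct repeat with a 4-base spacer) was in none of the 13, in 0 protein-coding windows and in 0.0152% of all windows. These are matches of letters, not binding sites, and a missing match says only that those letters are not in the window. G and C made up from 46.0% (Insig2 start 1) to 71.7% (Insig1 start 1) of the letters in the 13 windows. The median of protein-coding windows was 56.3%, and the shares given here were not matched for G and C.

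The median number grew with gene length, so each gene was set beside the 500 protein-coding genes nearest to it in length. Scap with 10 intervals was at percentile 92.2 of its 500 genes (median 5, quartiles 3 and 7), where the percentile is the share with fewer intervals plus 0.5 of the share with the same number. Srebf1 with 6 was at percentile 88.2 (median 3, quartiles 1 and 5), and Srebf2 with 8 at percentile 81.2 (median 5, quartiles 3 and 7). These 3 were above the upper quartile, but Srebf2 stood at percentile 58.9 when the gene span alone was counted and at 51.9 without intervals of 201 bp. Mlxipl with 7 reached the upper quartile of its genes (median 5, percentile 76.7).

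The shorter genes and Insig2 stood near the middle. Insig1 with 3 was at percentile 59.5 (median 2), Mlx with 2 at percentile 47.8 (median 2) and Insig2 with 3 at percentile 44.1 (median 3). In all, 5 of the 7 genes had more intervals than the median of genes of similar length, and the other two, Insig2 and Mlx, were at it. With the gene span alone, Insig1 and Mlx had 0 intervals against a median of 1 (percentiles 18.8 and 22.0), and Insig2 had 1 against a median of 2 (percentile 28.6).

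An empty promoter window was common among short genes. Of the 404 genes of Mlx's length with a listed start, 42.6% had an interval in a promoter window, and in 35.1% every start was as far from an interval as that of Mlx or farther. For genes of Insig1's length the share with an interval in a promoter window was 49.0%. For genes of the length of Scap, Mlxipl, Srebf2, Insig2 and Srebf1 it was 72.0%, 71.2%, 66.9%, 66.3% and 58.9%.

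**Figure D3:**
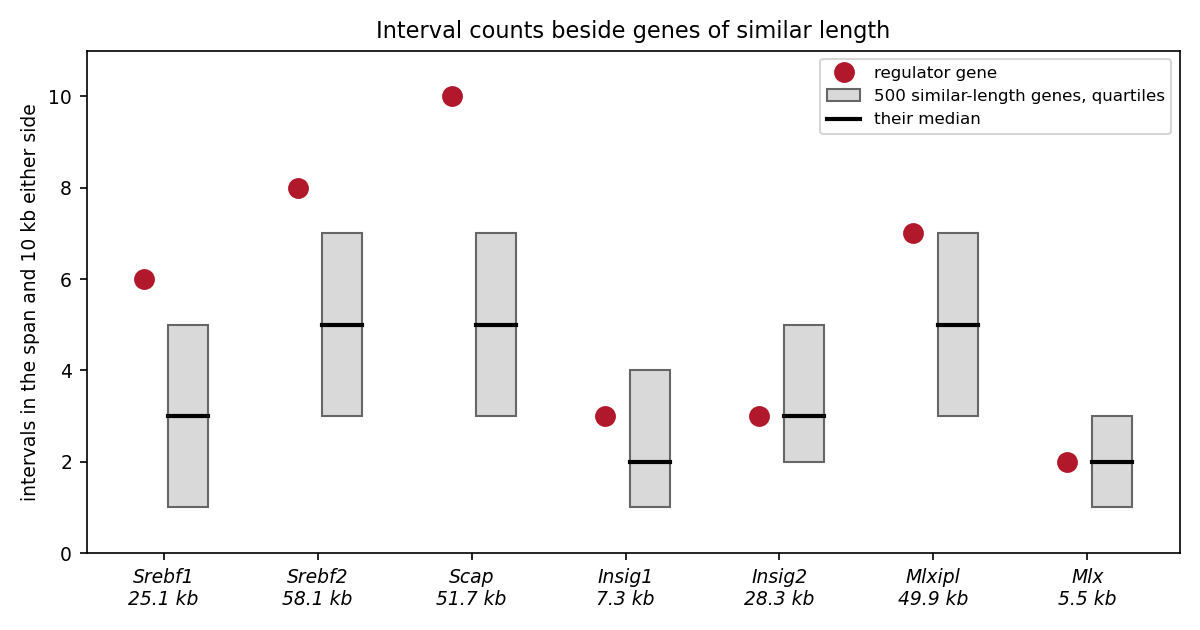
Number of intervals in the gene span and 10 kb either side for each regulator gene (red point, 1 value from the combined list) beside the 500 protein-coding genes of similar length (box, quartiles, with the median as a black line). The points of Srebf1, Srebf2 and Scap lie above their boxes, that of Mlxipl is level with the top of its box, and those of Insig1, Insig2 and Mlx lie within theirs.

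Other genes of the pathway were taken by role in 6 lists with 35 genes. Each of the 35 had an interval within 1 kb of an end of its span, against the 61.5% of all protein-coding genes. The lists were chosen with earlier results of these data known, and that share is not matched for length. The difference is therefore no independent result about the pathway. The median of the 35 genes was 4 intervals, against 6 for the 7 regulators and 3 for all protein-coding genes. More intervals than the median of similar-length genes were found in 20 of the 35, as many in 6 and fewer in 9. Among the 26 with a listed start, 17 had an interval in a promoter window (65.4%), against the 52.1% of all protein-coding genes given above.

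By role, the SREBP processing and turnover genes had more intervals than genes of their length in 2 of 7 cases, led by Rnf145, a ubiquitin ligase of the endoplasmic reticulum, with 10 (percentile 95.2). At the other end stood Mbtps1, which encodes the first protease that cleaves SREBPs, with 1 (percentile 7.70). It was named after its value was seen. Both LXR receptor genes were above the median of their length, with 4 intervals in Nr1h3, the receptor that activates Srebf1 in liver. Among the MLX network genes 3 of 5 were above, led by Mnt, a transcriptional repressor of that network, with 7 (percentile 97.2).

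Target genes gave mixed positions too. Of the SREBP-1 targets 5 of 8 were above the median of their length, led by the fatty acid elongase gene Elovl6 with 20 (percentile 97.9). SREBP-2 targets were above in 3 of 7 cases, led by the cholesterol synthesis gene Hmgcs1 with 6 (percentile 91.9). ChREBP targets were above in 5 of 6 cases, with 4 intervals in G6pc, the glucose-6-phosphatase gene (percentile 76.0). A promoter window held an interval in 5 of 7 SREBP-1, 1 of 2 SREBP-2 and 2 of 6 ChREBP targets with a listed start. In the other lists it was 3 of 4 processing genes, 2 of 2 LXR genes and 4 of 5 MLX network genes. The share of all protein-coding genes was the same 52.1%.

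**Figure D4:**
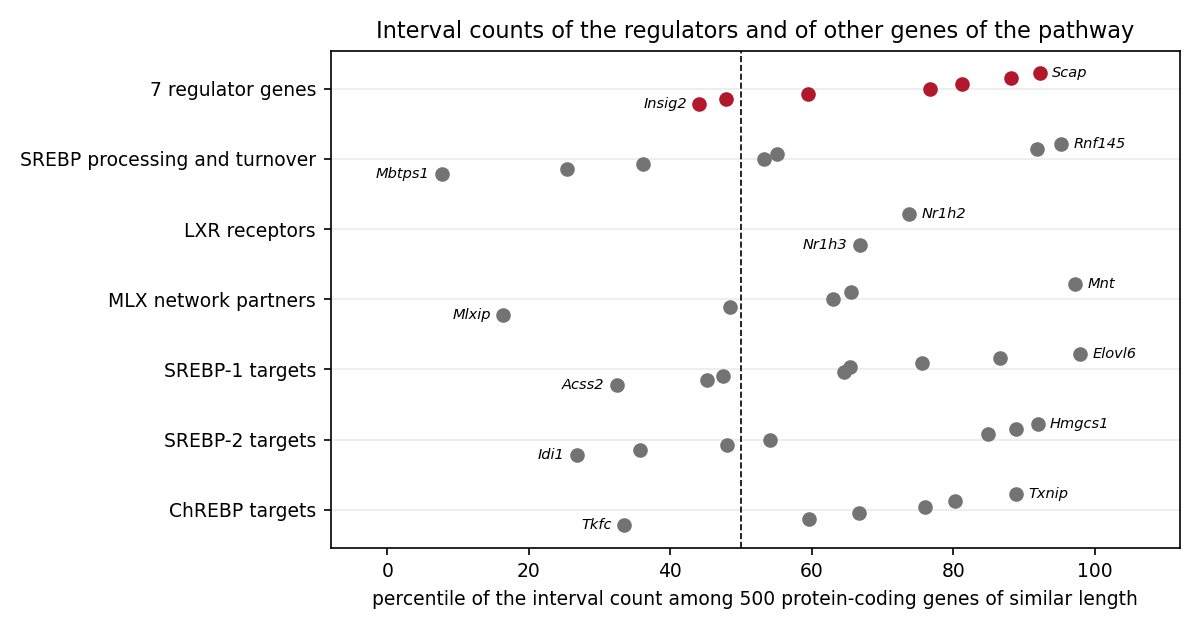
Percentile of each gene's interval count among 500 protein-coding genes of similar length, for the 7 regulators (red, top) and the 6 lists of other pathway genes (grey), with the lowest and highest gene of each list named and a dashed line at 50. The regulators run from 44.1 for Insig2 to 92.2 for Scap, within the range of the other lists.

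The tissue label was checked on marker genes. An interval lay within 1 kb of an end in 8 of 8 hepatocyte genes, 2 of 8 macrophage and Kupffer cell genes, 3 of 6 endothelial, 5 of 6 stellate cell, 3 of 5 cholangiocyte and 0 of 5 lymphocyte genes. The share of all protein-coding genes was the 61.5% given above. Either end of the span counted, so these numbers do not place an interval at a start. The marker lists were also chosen with earlier results of these data known. Within 10 kb, the 8 macrophage genes had 0 (Adgre1 and C1qa) to 5 intervals (Cd68), and the 5 lymphocyte genes 0 (Cd3d, Cd8a and Ms4a1) to 8 (Ptprc). These genes, and the hepatocyte distances given below, were picked for mention after their values were seen. In promoter windows, intervals were found for 1 of the 6 hepatocyte genes with a listed start, 1 of 5 macrophage, 1 of 3 endothelial, 2 of 3 stellate cell, 1 of 3 cholangiocyte and 0 of 3 lymphocyte genes, against 52.1% of all protein-coding genes. For the 6 hepatocyte genes, the listed start was 41 bp (Serpina1a), 585 bp (Ahsg) and 1355 bp (Apoa1) from the nearest interval. For the albumin gene Alb it was 3390 bp, for Tat 3867 bp and for Cyp2e1 7054 bp.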

How the data were processed

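The 6 ATAC-seq libraries from liver were reduced by the authors to 1 deposited list with 3 columns (chromosome, start and end), with no score, count or signal and no column of a strain or library. The submitters' processing notes name fastp, Bowtie2, HOMER and mm10, without versions. How read ends were shifted, how duplicate or mitochondrial reads were filtered, which threshold called a peak and how libraries were combined is not given in the sources used here. The unknown threshold sets which weak sites entered the list. The labels name the transposed material by an abbreviation, LMs, that they do not explain.

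Starts were converted to 1-based positions, and an overlap of at least 1 bp counted. Gene spans came from the RefSeq table of GRCm38.p6, and starts, strands and promoter sequences from the RefSeq promoter table of the same build, in which all 7 genes were found and 17492 protein-coding genes have a start. Exons and introns were not used here. Genes of similar length were the 500 nearest in log length, without the 7 genes. The 7 genes and all lists were chosen with earlier results of these data known. Named genes were the 7, the coding neighbours within 10 kb, and from each role list the gene with the most intervals (alphabetical for ties), with every gene lacking an interval at an end, of which there was none. No genes of similar pattern were named, since 1 list gives no pattern over samples. No test was run, because genes and intervals are not replicates. Counting and motif search were checked against brute force on made-up data (Python 3.11.15, pandas 2.3.3, numpy 2.4.6).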

Additional observations from a re-analysis of the deposited data

How the results depend on the processing

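Flank and width set the totals. The 39 intervals became 24 without flanks, 79 with flanks of 50 kb and 22 without intervals of 201 bp, by construction, and the median per gene became 12 with flanks of 50 kb and 3 without intervals of 201 bp. Centres in place of overlaps gave 39 and joining intervals within 500 bp gave 38. Without intervals of 201 bp, 3 of the 7 genes were above the median of similar-length genes in place of 5, and the cause was not tested. Other settings gave 4 to 6. Over the 8 settings, percentiles spanned 79.9 to 96.5 for Scap, 67.2 to 82.9 for Mlxipl, 65.7 to 91.9 for Srebf1, 51.9 to 81.2 for Srebf2, 18.8 to 92.2 for Insig1, 22.0 to 60.6 for Mlx and 28.6 to 48.3 for Insig2. Genes with an interval at a span end numbered 4 to 7. With an end window of 500 bp there were 4, lacking Srebf1, Insig2 and Mlx, against 55.96% of all protein-coding genes. With an end window of 5 kb there were 7, against 76.78%. Centres in place of overlaps gave 5, against 60.59%, and leaving out intervals of 201 bp gave 5, against 51.72%. With only the outermost start, 3 of 7 genes in place of 5 had an interval in a promoter window, because Srebf1 and Insig2 have theirs at inner starts. The share of all protein-coding genes was not computed for that setting, and the 52.1% by any start is not its background. For promoter windows, centres in place of overlaps gave 4 of 7 genes, lacking Scap, Insig1 and Mlx. A window of 1 kb to either side of each start gave 6, lacking Mlx, and leaving out intervals of 201 bp gave 5. No share of all protein-coding genes was computed for these settings either. The promoter alternatives were chosen after the data were seen. Of 35 recomputed counts for single genes, 23 stayed within 1.5 times. No paired analysis was possible because the list does not separate libraries, and no library could be left out for the same reason.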

Other observations

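Intervals between neighbours were shared in 7 of the 39 cases, counted as overlap with the span of another protein-coding gene. They were the farthest upstream interval of Srebf1, 3 of Srebf2, the last of Mlxipl and both of Mlx. By distance of centres, 9 of the 39 intervals lay within 1 kb of a listed start of the gene they were counted for. Within 1 kb of a listed start of another protein-coding gene lay 2, 1 each in the windows of Mlxipl and Mlx. Coasy, whose lower-coordinate end the other interval of Mlx straddles, has no listed start, so the count of 2 may be too low.

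Among the neighbours of Mlx with a listed start, an interval overlapped a promoter window of Naglu, Psmc3ip and Retreg3, while none overlapped that of Mlx itself.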
